A study of Homo sapiens with 6 samples.

Results

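The 10 genes described here encode granule proteins, MS4A family proteins and mast cell proteins of eosinophils, basophils and mast cells: PRG2, EPX, CLC, TCN1, MS4A3, MS4A2, FCER1A, HDC, CPA3 and TPSAB1. They are 10 of the 20030 genes in the deposited count table and were taken from it by symbol, and the count table and the FPKM table gave all 10. These genes were selected on their counts in the comparison of IGF2BP1-KD with IGF2BP1-NC libraries, with earlier results of these data known, so their levels and fold changes in that comparison are given as a description and carry no test. Not every member rose. MS4A3, PRG2 and TCN1 were well expressed in the IGF2BP1-KD libraries, MS4A2, EPX and HDC were read there at lower levels, CLC stood out in a single library, and CPA3, TPSAB1 and FCER1A had few counts or none.

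The libraries are labelled as H929 (NCI-H929), an established human multiple myeloma cell line. In it the study silenced IGF2BP1, an RNA-binding protein that reads N6-methyladenosine (m6A) on mRNA. There were 3 IGF2BP1-KD libraries and 3 negative control libraries (IGF2BP1-NC), and the methods describe stable knockdown lines made with lentiviral shRNA vectors and antibiotic selection. Which shRNA the IGF2BP1-KD cells carry, what the control cells carry, and whether the replicates are separate cultures, is not given in the sources used here, so p-values measure only the spread between these libraries, which may be technical. Total RNA was extracted and sequenced as stranded mRNA libraries.

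Eosinophils store major basic protein (from PRG2) and eosinophil peroxidase (EPX) in their granules and release them against parasites and in allergy. They also make the Charcot-Leyden crystal protein (CLC). Mast cells and basophils bind IgE through a receptor made of an alpha chain (FCER1A), a beta chain (MS4A2) and a shared gamma chain (FCER1G), and answer its crosslinking with histamine, made by HDC, and with proteases such as tryptase (TPSAB1) and carboxypeptidase A3 (CPA3). TCN1 encodes haptocorrin, a vitamin B12-binding protein of granulocyte granules, and MS4A3 encodes a membrane protein of granulocyte progenitors. Plasma cells, the normal counterpart of myeloma, are not known for these genes.

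The libraries held 16885449 to 18112179 counts in all, at which a count of 0 allows up to 3 counts, or at most 0.178 CPM (counts scaled to the library total, before TMM factors). Such limits cover counting error only. IGF2BP1 was read at 48.1, 43.7 and 49.1 FPKM in IGF2BP1-NC libraries 1, 2 and 3 and at 13.5, 12.9 and 12.8 FPKM in IGF2BP1-KD libraries 1, 2 and 3. It fell by 1.85 ± 0.065 on the log2 scale (SE, n = 3 and 3, adjusted p = 4.8e-08, edgeR's quasi-likelihood test, two-sided, Benjamini-Hochberg adjustment over 11994 tested genes). Of those genes, 13.7% were called higher and 14.5% lower in IGF2BP1-KD at an adjusted p under 0.05. Of 12 plasma cell markers, 7 never exceeded 3 counts, TNFRSF17, IRF4 and CD38 among them. Another 3 (SDC1, PRDM1 and XBP1, which other cells also express) lay above 1 CPM in every library. SDC1 encodes CD138, by which the study sorted patients' plasma cells. Of the 4 tested, SLAMF7 alone was called, at 4, 5 and 4 counts in IGF2BP1-NC and 52, 42 and 181 in IGF2BP1-KD. It passed the filter on low counts only through IGF2BP1-KD. Its call (higher) was lost without IGF2BP1-NC library 1 (adjusted p = 0.058, edgeR) or 3 (0.059). Most of the list was thus absent or nearly so, but not all. All 13 erythroid genes lay above 1 CPM in every library. The absent plasma cell markers and the erythroid genes do not match the label of a myeloma line. Whether the label is right was not tested.

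Of the 10 members, 6 passed the filter on low counts (TCN1, PRG2, MS4A2, MS4A3, EPX and HDC) and 4 did not (CLC, CPA3, TPSAB1 and FCER1A). MS4A2, EPX and HDC passed only through their counts in the IGF2BP1-KD libraries and therefore had to differ between the groups. All 6 were among the genes called higher, against the 13.7% of all tested genes, and all 6 were higher in every IGF2BP1-KD library than in every IGF2BP1-NC library, against 22.4% of all tested genes. Nothing is read from these counts, because the members were selected on this comparison.

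**Figure D1:**
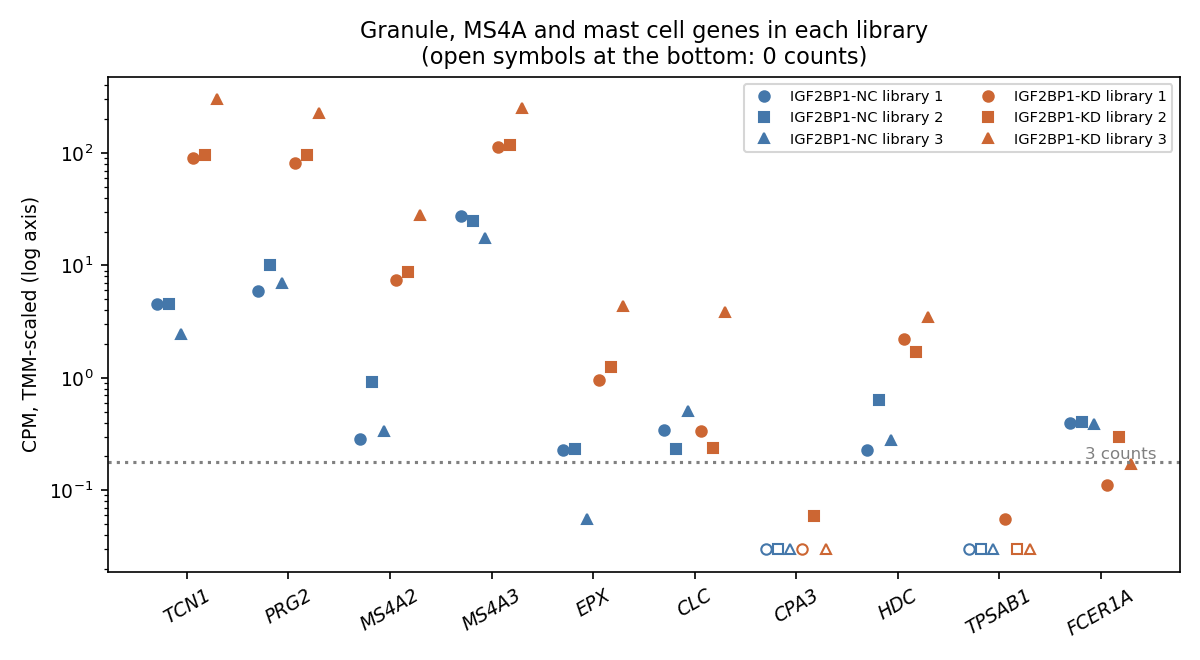
Scaled CPM (log axis) of the 10 genes in each library, with IGF2BP1-NC libraries in blue, IGF2BP1-KD libraries in orange, open symbols for 0 counts and a dotted line at 3 counts. The 6 genes TCN1, PRG2, MS4A2, MS4A3, EPX and HDC lie higher in every IGF2BP1-KD library than in every IGF2BP1-NC library, while CLC is high in IGF2BP1-KD library 3 alone.

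PRG2, the gene of major basic protein, had 105, 175 and 126 counts in IGF2BP1-NC libraries 1, 2 and 3 and 1473, 1645 and 4026 counts in IGF2BP1-KD libraries 1, 2 and 3. IGF2BP1-KD library 3 was the highest by far, and the groups did not overlap. In CPM scaled by the TMM method, the mean was 7.73 ± 2.17 in IGF2BP1-NC and 136 ± 81.1 in IGF2BP1-KD (SD, n = 3 each), a ratio of 17.6, and the fitted log2 fold change was 4.14 ± 0.60 (SE). In FPKM, a level per gene length, PRG2 went from rank 7345 among the 20030 genes to rank 720. Reads on PRG2 have an uncertain assignment, since 47.1% of the 50-base stretches of its transcript were also found in an unnamed protein-coding gene that overlaps it on the same strand.

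EPX, the peroxidase of the same granules, was at the edge of detection in the control cells, with 4, 4 and 1 counts in IGF2BP1-NC and 17, 21 and 76 counts in IGF2BP1-KD. The order of the libraries was that of PRG2 within IGF2BP1-KD, with library 3 above libraries 1 and 2. The mean went from 0.172 ± 0.101 to 2.17 ± 1.88 CPM (SD, n = 3 each), with a log2 fold change of 3.61 ± 0.80 (SE). Its level in IGF2BP1-KD, 0.803 ± 0.695 FPKM, remained far below the 88.7 ± 53.1 FPKM of PRG2.

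CLC, the crystal-forming galectin of eosinophils and basophils, had 6, 4 and 9 counts in IGF2BP1-NC and 6, 4 and 68 counts in IGF2BP1-KD. IGF2BP1-KD libraries 1 and 2 lay within the control range, and library 3 stood alone, so the groups overlapped. Among the 10986 genes with at least 30 counts in IGF2BP1-KD library 3, CLC had the largest ratio of that library to the highest of the other 5 libraries, at 7.70. The second largest, 6.97, belonged to PRG3, a close relative of PRG2 that encodes another eosinophil granule protein, with 0, 4 and 6 counts in IGF2BP1-NC and 6, 3 and 41 in IGF2BP1-KD. CEBPE, a transcription factor of terminal granulocyte differentiation, had 5, 10 and 6 counts in IGF2BP1-NC and 5, 6 and 32 in IGF2BP1-KD, and ranked 17. CD24, from the list of further eosinophil genes below, ranked 51 with a ratio of 2.26. These are values of 1 library, and none of CLC, PRG3 and CEBPE had enough counts to be tested. The ranking required counts in library 3 and then set that library against the others, which favours genes high there alone. CLC was also selected on these counts, so nothing is read from the ranks.

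TCN1, the haptocorrin gene, had 80, 79 and 44 counts in IGF2BP1-NC libraries 1, 2 and 3 and 1624, 1632 and 5277 counts in IGF2BP1-KD libraries 1, 2 and 3. Its lowest IGF2BP1-KD library was about the same as the next, and library 3 was far higher. The mean went from 3.87 ± 1.22 to 163 ± 120 CPM (SD, n = 3 each), a ratio of 42.0, and the log2 fold change was 5.39 ± 0.80 (SE), which ranked 2 among all tested genes. The transcript shared no 50-base stretch with another gene. In FPKM it moved from rank 8823 to rank 577.

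MS4A3 was the member with the highest level in the control cells. It had 482, 426 and 312 counts in IGF2BP1-NC and 2012, 2014 and 4461 counts in IGF2BP1-KD. All IGF2BP1-NC libraries were well above the limit set by a count of 0, so the gene was expressed in the control cells too. The mean went from 23.2 ± 5.19 to 162 ± 80.2 CPM (SD, n = 3 each), a ratio of 6.97, with a log2 fold change of 2.80 ± 0.46 (SE).

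MS4A2, the beta chain of the IgE receptor, had 5, 16 and 6 counts in IGF2BP1-NC and 134, 149 and 492 counts in IGF2BP1-KD. The groups did not overlap, and IGF2BP1-KD library 3 was again the highest. The log2 fold change was 4.83 ± 0.89 (SE), which ranked 3 among all tested genes, on means of 0.516 ± 0.358 and 14.8 ± 11.5 CPM (SD, n = 3 each). The other chains of the receptor were close to the limit of detection and could not be tested. FCER1A, the alpha chain that binds IgE, had 7, 7 and 7 counts in IGF2BP1-NC and 2, 5 and 3 counts in IGF2BP1-KD, lower in every IGF2BP1-KD library. FCER1G, the gamma chain, had 1, 2 and 4 counts in IGF2BP1-NC and 2, 6 and 6 counts in IGF2BP1-KD.

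HDC, histidine decarboxylase, had 4, 11 and 5 counts in IGF2BP1-NC and 40, 29 and 61 counts in IGF2BP1-KD. It was the tested member whose IGF2BP1-KD libraries lay closest together, with a coefficient of variation of 36.7%. Its log2 fold change was 2.68 ± 0.43 (SE), on means of 0.382 ± 0.223 and 2.47 ± 0.908 CPM (SD, n = 3 each). The mast cell proteases were not detected beyond single counts. CPA3 had 0 counts in 5 libraries and 1 count in IGF2BP1-KD library 2, and TPSAB1 had 0 counts in 5 libraries and 1 count in IGF2BP1-KD library 1. Both lie under the limit that a count of 0 allows in every library, so no fold is given. TPSAB1 shares 70.0% of its 50-base stretches with other tryptase genes, and its near copy TPSB2 also had a single count, in IGF2BP1-KD library 1.

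Most of the members' reads came from TCN1, PRG2 and MS4A3. The 10 genes together held 693, 722 and 510 counts in IGF2BP1-NC libraries 1, 2 and 3 and 5309, 5500 and 14464 counts in IGF2BP1-KD libraries 1, 2 and 3. TCN1, PRG2 and MS4A3 made up 94.2% to 96.2% of them in each library. In bulk samples, more cells that express a gene and more RNA per cell cannot be told apart. By FPKM, the order in the control cells was MS4A3 (13.7 ± 3.21), PRG2 (4.98 ± 1.35), TCN1 (2.46 ± 0.792) and CLC (0.565 ± 0.212), with the other members below 0.4. In IGF2BP1-KD it was TCN1 (104 ± 77.1), MS4A3 (96.3 ± 48.0) and PRG2 (88.7 ± 53.1), whose ranges overlapped, followed at a distance by MS4A2 (3.63 ± 2.84). The leading gene differed between IGF2BP1-KD libraries, being MS4A3 at 66.6 and 70.7 FPKM in libraries 1 and 2 and TCN1 at 193 FPKM in library 3.

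IGF2BP1-KD library 3 held more of these transcripts than libraries 1 and 2. Its CPM was 3.22 times the mean of libraries 1 and 2 for TCN1, 2.56 times for PRG2, 3.45 times for MS4A2, 2.20 times for MS4A3 and 3.96 times for EPX, while HDC reached 1.76 times. Of all tested genes, 1.16% (139 of 11994) had a ratio of at least 2 there. IGF2BP1 itself did not follow, at 0.962 times. Library 1 alone, set against the 3 IGF2BP1-NC libraries, gave CPM ratios of 23.5 for TCN1, 10.6 for PRG2, 14.5 for MS4A2, 4.84 for MS4A3, 5.52 for EPX and 5.85 for HDC. The members were selected on counts that include libraries 1 and 3. These ratios, and the place of the members beside the share of 1.16%, are thus a description and no support. Without library 3, the log2 fold change of TCN1 was 4.60 and that of EPX 2.63.

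**Figure D2:**
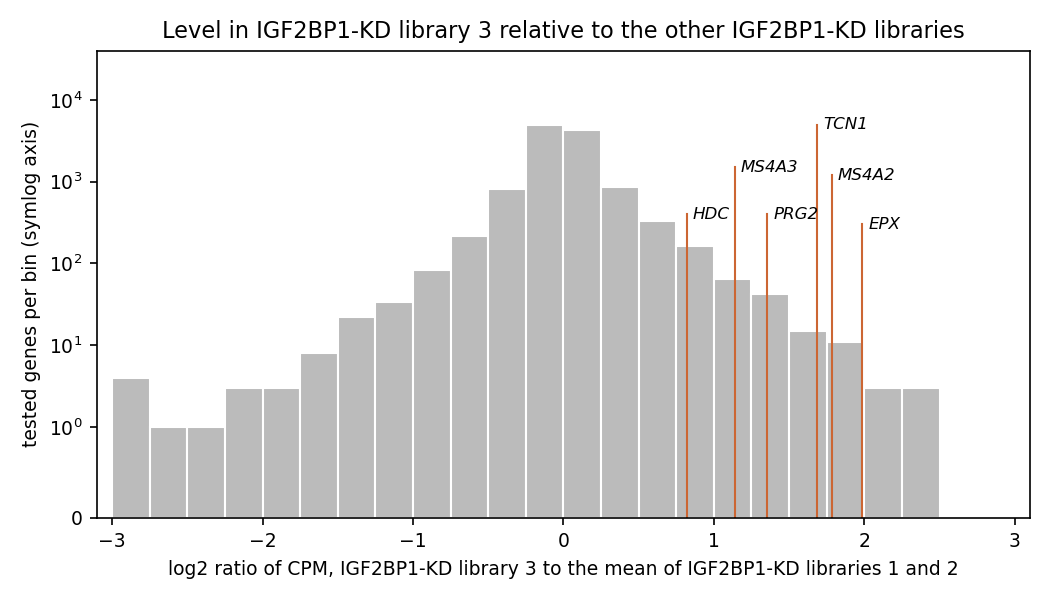
Histogram of the log2 ratio of CPM in IGF2BP1-KD library 3 to the mean of IGF2BP1-KD libraries 1 and 2 for all 11994 tested genes (counts of genes on a symmetric log axis, values below -3 placed in the first bin), with vertical lines of arbitrary height at the 6 tested members. All 6 lines stand in the right tail, from 1.76 times for HDC to 3.96 times for EPX, but the members were selected on counts that include library 3.

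Marker genes of other leukocytes were also read in these libraries. Which cells their transcripts came from, and their part in the members' values, was not tested. In full, the list of 24 neutrophil granule markers summed to 252 to 280 CPM in IGF2BP1-NC and 272 to 299 CPM in IGF2BP1-KD, and that of 12 monocyte markers to 69.8 to 97.4 and 91.7 to 146 CPM. RETN was at 0 in every library, while LYZ, lysozyme, had 499 to 800 counts and no call (adjusted p = 0.26, edgeR). Of the 8 tested neutrophil markers, LCN2 was called higher and CRISP3 lower, beside 13.7% and 14.5% of all tested genes. The call of CRISP3 was lost whichever library was left out, and that of LCN2 was kept. Of the 4 tested monocyte markers, none was called. From both lists, 26 markers with at most 10 counts in every IGF2BP1-NC library were then picked, a choice that favours a higher sum in IGF2BP1-KD, so only the IGF2BP1-KD libraries are set beside each other. These markers summed to 76, 523 and 387 counts in IGF2BP1-KD libraries 1, 2 and 3, where the members held 5309, 5500 and 14464 counts. S100A9, an abundant neutrophil and monocyte transcript, had 7, 164 and 106 counts in IGF2BP1-KD libraries 1, 2 and 3, and MPO, myeloperoxidase, had 4, 24 and 25. The erythroid list summed to 3092 to 4414 CPM in IGF2BP1-NC and 3684 to 3841 CPM in IGF2BP1-KD, with 3 of its 13 genes called higher and 5 lower. The list of 12 megakaryocyte markers moved with the groups, summing to 501 to 562 CPM in IGF2BP1-NC and 279 to 376 CPM in IGF2BP1-KD, with 4 of 5 tested genes lower, 5 markers at 3 counts or fewer throughout and a median log2 fold change of -0.85. Its part in the members' values was not tested either.

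**Figure D3:**
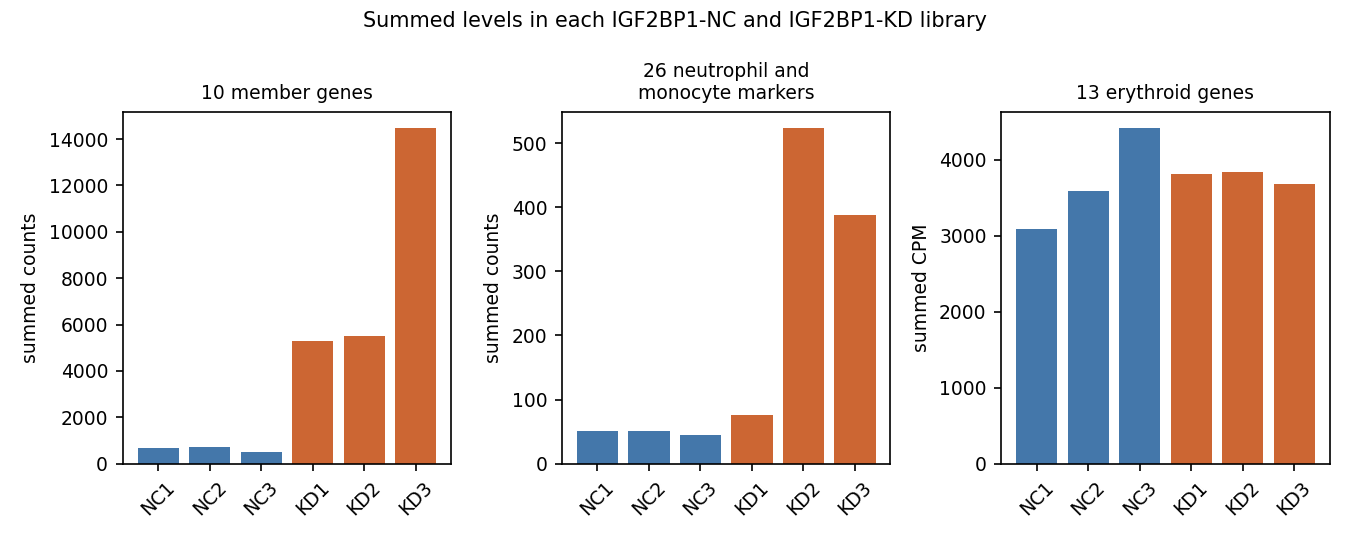
Summed levels in each library of the 10 member genes (counts), of 26 neutrophil and monocyte markers with at most 10 counts in every IGF2BP1-NC library (counts) and of 13 erythroid genes (CPM), with IGF2BP1-NC in blue and IGF2BP1-KD in orange. The members peak in IGF2BP1-KD library 3 (14464 counts) and the leukocyte markers in IGF2BP1-KD library 2 (523 counts).

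On GRCh38, with the GENCODE release 44 annotation, 4 of the 10 members lie on the long arm of chromosome 11. They are PRG2 (chr11:57386780-57390650, minus strand), TCN1 (chr11:59852800-59866489, minus strand), MS4A3 (chr11:60056587-60071115, plus strand) and MS4A2 (chr11:60088261-60098467, plus strand). The start of TCN1 is 190 kb from that of MS4A3, which is 31.7 kb from that of MS4A2, and PRG2 is 2476 kb from TCN1. The others lie apart, with FCER1A on chromosome 1, CPA3 on chromosome 3, HDC on chromosome 15, TPSAB1 on chromosome 16, EPX on chromosome 17 and CLC on chromosome 19.

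Within 500 kb of a member, the table listed 151 other genes, of which 84 were tested, 14 were higher and 6 lower in IGF2BP1-KD, beside 13.7% higher and 14.5% lower over all tested genes, with a median log2 fold change of 0.03 against -0.0048 over all tested genes. Around the 4 members on chromosome 11, 10 of 23 tested neighbours were higher and 3 lower, beside the same 13.7% and 14.5%. MS4A6A and YPEL4 passed the filter on low counts only through IGF2BP1-KD and APLNR only through IGF2BP1-NC, the group where each was high. MS4A6A, next to MS4A2, rose by 2.60 ± 0.31 on the log2 scale (SE, adjusted p = 0.00024, edgeR), with 9, 14 and 11 counts in IGF2BP1-NC and 58, 57 and 92 in IGF2BP1-KD. MS4A4E rose by 1.80 ± 0.48 (SE, adjusted p = 0.034, edgeR), but its call was lost without IGF2BP1-NC library 1 (adjusted p = 0.087), 2 (0.092) or 3 (0.12). MS4A4A, a macrophage gene whose start lies between theirs, was tested and not called. Near PRG2, UBE2L6, a ubiquitin-conjugating enzyme that also attaches ISG15, rose by 1.17 and YPEL4 by 1.75, while APLNR fell by 1.91 and TNKS1BP1 fell by 1.01, each called in edgeR with any 1 library left out. STX3, a syntaxin of granule exocytosis near TCN1, was higher at 2130, 2420 and 2870 counts in IGF2BP1-NC and 3900, 4064 and 5473 counts in IGF2BP1-KD (named after its values were seen).

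**Figure D4:**
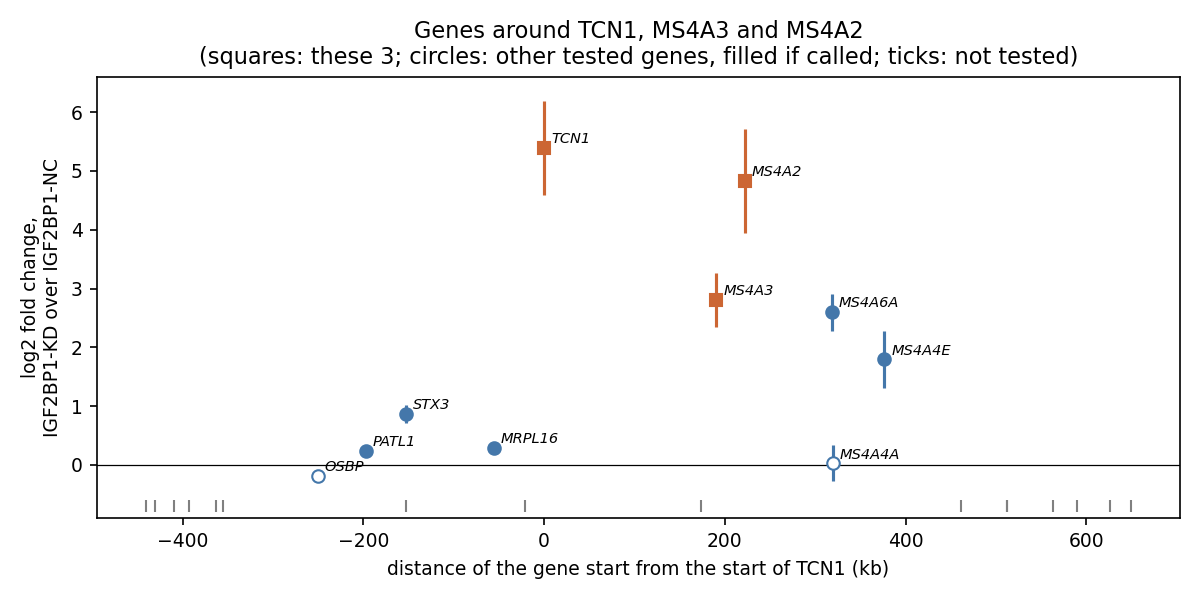
Fitted log2 fold change (IGF2BP1-KD over IGF2BP1-NC, bars are SE) against the distance of each gene's start from the start of TCN1 in kb, with squares for TCN1, MS4A3 and MS4A2, circles for other tested genes (filled where called) and ticks for genes not tested. MS4A6A and MS4A4E stand above 1 on the far side of MS4A2, while MS4A4A and OSBP lie near 0.

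The sequences just before the gene starts were read from RefSeq (GRCh38.p14), whose promoter table held 7 of the 10 members (FCER1A, CPA3, TCN1, MS4A3, MS4A2, HDC and CLC). PRG2, EPX and TPSAB1 had no entry. GATA factors, among them GATA1 and GATA2 of erythroid, eosinophil and mast cell lineages, bind the letters GATA, so the motif GATAA was searched on both strands in the 250 bases before the start. It was found in 6 of the 7 windows, against 20.4% of the 35116 windows of the table, and 3 times in MS4A3, against 0.675% of windows with at least 3 matches. The longer AGATAA was found in 5 of 7, against 9.17% of windows, and is contained in GATAA matches. TGATAA was found in none of the 7 (6.66% of windows), and CANNTG, the E-box, in all 7 (61.8%). Of the other motifs searched, GGGCGG was found in 1 of 7 (42.6%), TTNNGNAA in 4 (33.2%) and GAGGAA in 3 (23.6%). The windows were not matched for base composition, so these shares cannot tell a motif apart from composition. The matches of the 6 genes are shown because the genes share this motif and not the level of their transcripts. Each is 25 bases long, written in the direction of transcription with the match in capitals (GATAA, or TTATC where it is on the other strand).
MS4A3 (chr11:60056451-60056475, plus strand, 204 bases before the start): cagaagacagTTATCcctcacacca
MS4A3 (chr11:60056601-60056625, plus strand, 54 bases before the start): ataaggcaaaGATAAcgttaagtct
MS4A3 (chr11:60056629-60056653, plus strand, 26 bases before the start): gaggcttccgTTATCgggaaaagat
MS4A2 (chr11:60088600-60088624, plus strand, 54 bases before the start): gccaagaaacTTATCtgtctggcaa
HDC (chr15:50265876-50265900, minus strand, 164 bases before the start): gaagcgccttTTATCctggctctct
CLC (chr19:39738221-39738245, minus strand, 206 bases before the start): tccatcgtctTTATCtgtgcatttc
CPA3 (chr3:148865114-148865138, plus strand, 172 bases before the start): gcaaaaggtaGATAAgtagcatgtg
CPA3 (chr3:148865242-148865266, plus strand, 44 bases before the start): tgctcatcaaGATAAgggctgaggc
FCER1A (chr1:159302204-159302228, plus strand, 122 bases before the start): atcctgaataTTATCtctaaagaaa

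The motif was thus present before CPA3 and FCER1A, which were at or near 0 counts, as well as before MS4A3, MS4A2 and HDC. TCN1, the member with the largest log2 fold change, held no GATAA in this window. It was the only one of the 7 with the letters CCAAT, found in 32.0% of all windows, and this stretch is shown because it sits just before the start.
TCN1 (chr11:59866491-59866515, minus strand, 18 bases before the start): aaatagccagCCAATtcatcaacat

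A match is a description of letters, and no binding was measured here. TATAAA was found in MS4A2 alone of the 7, against 10.7% of windows. The RefSeq and GENCODE starts differ for some genes, so windows of MS4A3, MS4A2, HDC and FCER1A overlap the GENCODE gene body.

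The transcription factors known for these lineages were read next to the members, from a list of 28 granulocyte regulators, of which 22 were tested, 2 were higher and 6 lower (13.7% and 14.5% over all tested genes), with a median log2 fold change of -0.27. GATA2, needed for mast cells and basophils, had 3074, 3140 and 3089 counts in IGF2BP1-NC and 4481, 4124 and 4603 counts in IGF2BP1-KD, a rise of 0.51 ± 0.058 on the log2 scale (SE, adjusted p = 0.00018, edgeR). GATA1, of erythroid, eosinophil and mast cells, had 5143, 5053 and 4863 against 4306, 4032 and 4284 counts and fell by 0.25 ± 0.058 (SE, adjusted p = 0.0092, edgeR), a call that was lost without IGF2BP1-KD library 2 (adjusted p = 0.0503). ID3, an inhibitor of helix-loop-helix factors, rose by 1.53 ± 0.27, and TRIB1, STAT5B and MYB fell by 0.68, 0.44 and 0.36, each called in edgeR with any 1 library left out. CEBPA had 12, 8 and 10 counts in IGF2BP1-NC and 6, 8 and 5 counts in IGF2BP1-KD. SPI1, the myeloid factor PU.1, overlapped between the groups at 561, 397 and 277 against 359, 339 and 539 counts.

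Other eosinophil genes were scarce beside PRG2. Of 15 further eosinophil genes, 6 were tested and 5 were called higher, beside 13.7% of all tested genes. Of these 5, ADGRE1, SMPD3, SIGLEC8 and CD9 passed the filter on low counts only through IGF2BP1-KD, where they were high, so this count and their p-values carry that limit, and only PTGDR2 had passed in both groups. The ribonuclease genes RNASE2 and RNASE3, which encode abundant proteins of the same granules, never exceeded 3 counts. IL5RA, the interleukin 5 receptor that defines the lineage, had 0, 0 and 2 counts in IGF2BP1-NC and 4, 0 and 7 in IGF2BP1-KD. ADGRE1, an adhesion receptor of eosinophils, had 6, 3 and 0 against 16, 24 and 41 counts and rose by 3.13 ± 0.66 (SE, adjusted p = 0.0063, edgeR). The remaining calls were of low counts and weak. SMPD3 lost its call without IGF2BP1-KD library 2 (adjusted p = 0.059) or 3 (0.061), and PTGDR2, a prostaglandin D2 receptor, without IGF2BP1-NC library 2 (0.060) or IGF2BP1-KD library 2 (0.093). SIGLEC8 lost its call without any library except IGF2BP1-KD library 2 (adjusted p 0.0503 to 0.18), and CD9 without any of the 6 (0.057 to 0.14).

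Of 27 further basophil and mast cell genes, 12 were tested, 6 were higher and none was lower, beside 13.7% and 14.5% of all tested genes (median log2 fold change 0.36). IL1RL1 alone of the 6 passed the filter on low counts only through IGF2BP1-KD. IL1RL1, the interleukin 33 receptor of mast cells, had 12, 9 and 7 counts in IGF2BP1-NC and 65, 72 and 116 in IGF2BP1-KD and rose by 3.17 ± 0.34 on the log2 scale (SE, adjusted p = 0.00012, edgeR). ENPP3, the basophil activation antigen CD203c, was well expressed in both groups, with 543, 461 and 464 against 1042, 1038 and 1273 counts, and rose by 1.20 ± 0.10 (SE, adjusted p = 3.4e-05, edgeR). SIGLEC6 rose from 42, 55 and 36 to 160, 154 and 390 counts (log2 fold change 2.41 ± 0.46, SE, adjusted p = 0.012, edgeR), and its call was lost without IGF2BP1-NC library 1 (adjusted p = 0.071) or 3 (0.062). CD63, a granule membrane protein, rose by 0.69. KIT, the stem cell factor receptor on which mast cells depend, was at 1, 5 and 14 against 10, 15 and 24 counts, with groups that overlapped and no call. IL3RA, CMA1, TPSD1, TPSG1, IL4 and RGS13 had 0 counts in every library. For genes whose reads map to several places, such as IL3RA and the tryptases, 0 counts need not mean absence.

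Of 21 cytokine receptor genes, 14 were tested, 6 were higher and 1 lower, beside 13.7% and 14.5% of all tested genes (median log2 fold change 0.17). Of the 6, CSF3R, IL1RL1, CSF2RB and IL6R passed the filter on low counts only through IGF2BP1-KD, and IL1RAP, the gene that fell, passed only through IGF2BP1-NC, so their p-values carry that limit. CSF3R, the granulocyte colony-stimulating factor receptor, had 2, 4 and 1 counts in IGF2BP1-NC and 23, 26 and 54 in IGF2BP1-KD and rose by 3.82 ± 0.56 (SE, adjusted p = 0.00076, edgeR). CSF2RB, the beta chain shared by the receptors of interleukin 3, interleukin 5 and GM-CSF, had 18, 7 and 15 against 52, 53 and 152 counts and rose by 2.68 ± 0.54 (SE, adjusted p = 0.0088, edgeR), a call lost without IGF2BP1-NC library 3 (adjusted p = 0.0512). Its alpha-chain partners IL3RA and CSF2RA had 0 counts in every library. These 0 counts need not mean absence, because how reads that map to several places were counted is not given. IL1RAP, the co-receptor of IL1RL1, moved the other way, with 60, 45 and 26 against 9, 11 and 17 counts, and fell by 1.81 ± 0.39 (SE, adjusted p = 0.0060, edgeR).

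The signalling genes downstream of the IgE receptor were mostly expressed whether or not the receptor chains were. All 23 lay above 3 counts in some library, 21 were tested, 3 were higher and 4 lower, beside 13.7% and 14.5% of all tested genes (median log2 fold change 0.03). ITPR3, an intracellular calcium channel, fell by 0.67 ± 0.064 (SE, adjusted p = 7.1e-05, edgeR), and FYN and PLCG1 fell by 0.44 and 0.32. INPP5D, the phosphatase SHIP1 that restrains mast cells, rose by 1.10 ± 0.25 (SE, adjusted p = 0.013, edgeR). Of 20 histamine and eicosanoid genes besides HDC, 7 were tested, none was higher and 2 were lower (beside 14.5% lower over all tested genes), TBXAS1 (adjusted p = 0.041, edgeR) and LTA4H (0.020). The call of TBXAS1 was lost without IGF2BP1-NC library 1 (adjusted p = 0.070) or 2 (0.14) or IGF2BP1-KD library 1 (0.11) or 2 (0.15), and that of LTA4H without IGF2BP1-NC library 2 (0.054) or IGF2BP1-KD library 3 (0.074).

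Relatives of the members by sequence were mostly at 3 counts or fewer in every library. Of 14 further MS4A family genes, 11 were at 3 counts or fewer throughout and 3 were tested, the neighbours MS4A6A, MS4A4E and MS4A4A given above. Of 26 paralogs of the members, 15 were at 3 counts or fewer throughout and 4 were tested. FCGR2B, the inhibitory IgG receptor related to FCER1A, passed the filter only through IGF2BP1-KD and rose by 1.73 (adjusted p = 0.016, edgeR), with the call lost without IGF2BP1-NC library 2 (adjusted p = 0.069) or IGF2BP1-KD library 3 (0.0514), and GAD1, a decarboxylase related to HDC, fell by 0.36 (adjusted p = 0.046, edgeR), with the call kept only without IGF2BP1-NC library 1 (0.061 to 0.16 without any other). Of 14 vitamin B12 genes beside TCN1, 11 were tested, 2 were higher and none was lower, beside 13.7% and 14.5% of all tested genes. MMACHC rose by 0.43 ± 0.091 (SE, adjusted p = 0.0057, edgeR) and MTR, methionine synthase, by 0.23 ± 0.059 (SE, adjusted p = 0.015, edgeR), the latter not called without IGF2BP1-KD library 1 (adjusted p = 0.062) or 2 (0.062).

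**Figure D5:**
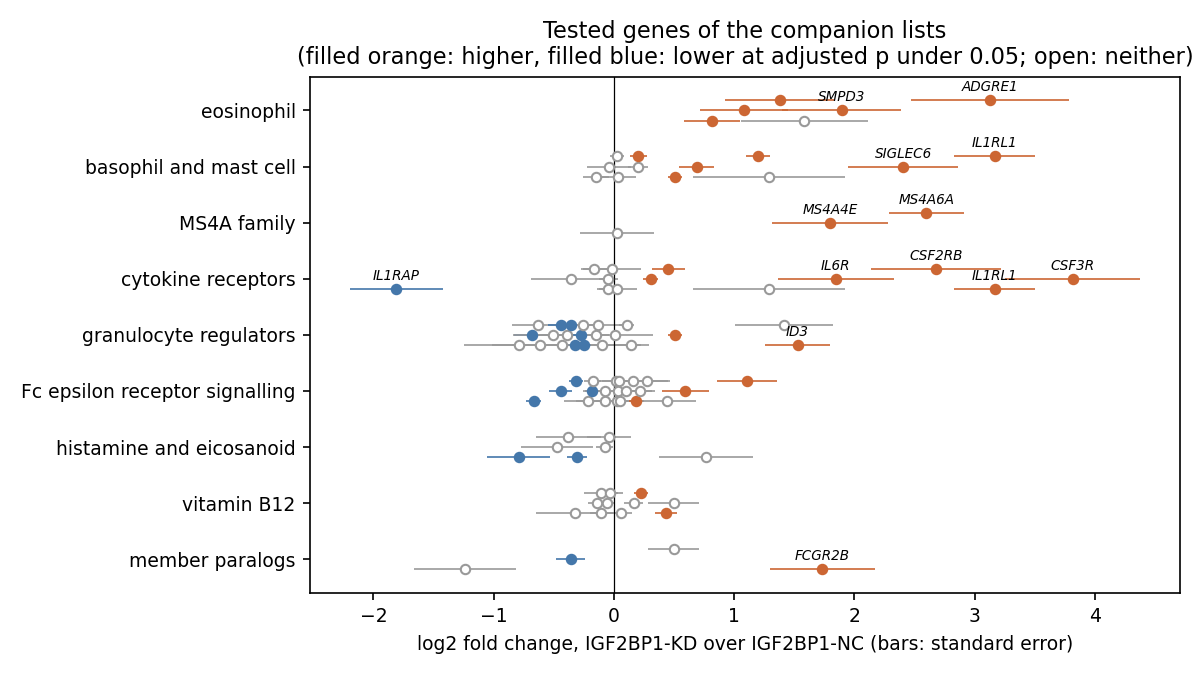
Fitted log2 fold change (IGF2BP1-KD over IGF2BP1-NC, bars are SE) of the tested genes of 9 lists around the members, filled orange where higher, filled blue where lower and open where neither at an adjusted p under 0.05. The calls above 2 are ADGRE1, IL1RL1, SIGLEC6, MS4A6A, CSF3R and CSF2RB, while the Fc epsilon receptor signalling, histamine and vitamin B12 genes lie mostly within 1 of 0.

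The genes most like TCN1, PRG2 and MS4A3 across the 6 libraries were found by the root mean square distance of their log2 CPM. Each gene was first centred on its mean over the 6 libraries. A prior count of 2 was added before taking logs, which shrinks differences at low counts. The measure uses the same comparison and is given with no test. Leaving out the members themselves, TCN1 was closest to ANKRD33 (0.714), SERPINC1 (0.721) and SLAMF7 (0.836), and PRG2 was closest to the same genes in another order, SLAMF7 (0.337), ANKRD33 (0.428) and SERPINC1 (0.468). SERPINC1, antithrombin, had 7, 4 and 3 counts in IGF2BP1-NC and 67, 50 and 199 in IGF2BP1-KD. ANKRD33 had 10, 6 and 8 against 83, 107 and 359 counts, and SLAMF7, a surface receptor of plasma and NK cells, had 4, 5 and 4 against 52, 42 and 181. MS4A3 was closest to IL1RL1 (0.181), MYO1F (0.248) and COL6A3 (0.249). Among the 6 tested members, MS4A2 was closer to TCN1 (0.555) and to PRG2 (0.341) than PRG2 was to TCN1 (0.678). MS4A3 and EPX were the closest pair (0.306), and TCN1 and HDC were the farthest apart (1.46). EPX had few control counts and a larger fitted log2 fold change than MS4A3 (3.61 against 2.80), so this distance depends on the prior count. The same limit holds for MS4A2, HDC, SLAMF7, SERPINC1 and ANKRD33, which also had few control counts.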

How the data were processed

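RNA-seq of 6 libraries, 3 IGF2BP1-NC and 3 IGF2BP1-KD, was grouped by the labels. Per the labels and the methods, the authors used Trimmomatic for trimming, HISAT2 for mapping to GRCh38 and HTSeq for counting, and deposited raw counts per gene. They also deposited FPKM values, scaled by gene length and library total, which they attributed to Cufflinks. Tool versions, the annotation release and the strand setting of the counting are not given in the sources used here, so it is unknown how reads shared by overlapping or nearly identical genes were assigned.

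The members, the 14 lists and the rules for naming genes were chosen with earlier results of these data known. Counts were scaled with TMM factors, filtered with filterByExpr and tested across all 11994 genes that passed with edgeR 4.0.16 (glmQLFit, robust, glmQLFTest, two-sided, R 4.3.3), and calls had a Benjamini-Hochberg adjusted p under 0.05. That test gives no standard error. The SE of a log2 fold change, also in the figures, is its absolute value divided by the square root of the test's F statistic. Named were all members, IGF2BP1, up to 4 called genes with the largest change per list, the genes that define the lineages, the 3 nearest patterns of TCN1, PRG2 and MS4A3, and called neighbours of at least 1 on the log2 scale. The alternatives were DESeq2 1.42.0, library size scaling, no filter, at least 10 counts in every library, limma 3.58.1 on log2(FPKM + 1) (mean of at least 1) and on log2(FPKM + 0.1), the replicate number as a block and each library left out in turn. IGF2BP1-KD library 1 alone was an alternative chosen after seeing the data. The scripts were tested on simulated data. The replicate numbers did not pair the samples, since deviations of same-numbered libraries correlated at -0.052, 0.036 and -0.106. Symbols were matched to GENCODE release 44 and RefSeq, with Python 3.11.15, pandas 2.3.3 and, for plots, matplotlib 3.10.9. A planned comparison of protein sequences was not made here.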

Additional observations from a re-analysis of the deposited data

How the results depend on the processing

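The 6 members called kept their direction under each alternative that gave them a value, and the number called was 6 under DESeq2, library size scaling, no filter and log2(FPKM + 0.1), 4 under log2(FPKM + 1), where EPX and HDC gave no value, and 3 with at least 10 counts in every library, which leaves 3 to test. These counts are no support for the members, which were selected on this comparison. MS4A2, EPX and HDC also passed the main filter only through IGF2BP1-KD, so their direction was set in advance. With each library left out in turn, 2 to 6 were called, the lowest without IGF2BP1-NC library 3, and the log2 fold changes lay at 4.60 to 5.69 for TCN1, 3.54 to 4.41 for PRG2, 3.97 to 5.54 for MS4A2, 2.32 to 3.01 for MS4A3, 2.63 to 3.98 for EPX and 2.36 to 3.25 for HDC. On log2(FPKM + 1) the log2 fold change of MS4A2 was 1.88. Over all genes 2290 to 3991 were called with 1 library left out, against 3386 with all 6. For the lists these ranges were 2 to 4 (eosinophil, 5 with all libraries), 5 to 6 (basophil and mast cell, 6), 1 to 2 (MS4A, 2), 0 to 3 (paralogs, 2), 7 to 11 (regulators, 8), 5 to 7 (cytokine receptors, 7), 4 to 9 (Fc epsilon receptor signalling, 7), 0 to 2 (histamine and eicosanoid, 2), 1 to 3 (vitamin B12, 2) and 16 to 24 (neighbours, 20). Of the 39 list genes called, 20 were called with every library left out, and no direction turned under an alternative that gave a value. With IGF2BP1-KD library 1 alone, where the lone library is assumed to vary like the controls, 5 members, 566 genes in all, 0 eosinophil, 1 MS4A, 0 paralog, 2 regulator, 2 cytokine receptor, 1 signalling, 0 histamine and eicosanoid, 0 vitamin B12 and 5 neighbour genes were called, and 31 of the 39 list calls were lost. DESeq2 called 3 eosinophil genes. At least 10 counts in every library left 1 eosinophil, 1 MS4A, 0 paralog and 2 cytokine receptor calls, from fewer genes tested. Without a filter 1 MS4A gene was called, with library size scaling 1 paralog, and on log2(FPKM + 1) 1 eosinophil, 0 MS4A, 2 cytokine receptor and 1 histamine and eicosanoid gene. Within 1 Mb, 55 neighbours were called. With the replicate block, which the numbers do not warrant, 4 members, 2913 genes in all, 2 eosinophil, 1 MS4A, 1 paralog, 3 signalling and 1 histamine and eicosanoid gene were called. Except where a filter or distance changes what is tested, the cause was not tested.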
